A study of Mus musculus with 27 samples.

Results

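The 42 genes described here encode proteins that fold, modify and export secretory proteins in the endoplasmic reticulum (ER), together with the sensors that adjust this capacity. They were chosen by name for their function, and they are 42 of the 53379 genes in the count table. By role they comprised 11 lumenal chaperones and co-chaperones, 5 protein disulfide isomerases, 6 stress sensors and transcription factors, 4 components of ER-associated degradation, 4 components of translocation into the ER, 7 components of vesicle export and retrieval, and 5 collagen folding factors. All 42 passed the filter on low counts, which left 18758 genes for testing. RNA was sequenced from hepatic stellate cells (HSCs), the retinoid-storing pericytes of the liver, which were sorted from male Balb/c mice by the ultraviolet fluorescence of their retinoid and were not cultured. Acute injury was 1 intraperitoneal injection of carbon tetrachloride (CCl4), a hepatotoxin, at 0.5 µL per g of body weight in mineral oil, given at 10 to 12 weeks of age. HSCs were collected 24 h (n = 3), 72 h (n = 4) or 7 d (n = 4) later. Chronic injury was 8 injections of the same dose over 4 weeks, started at 8 to 10 weeks of age, and HSCs were taken 24 h, 72 h or 14 d later, counted from the final dose (n = 4 each). The healthy mice (n = 4), 10 to 12 weeks old, received no injection, so that CCl4, its oil vehicle and the handling cannot be told apart. The sort takes cells that still hold retinoid, and a cell that had lost it would not be collected.

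Secretory and membrane proteins enter the ER through the Sec61 channel, fold with the help of chaperones such as BiP, and leave in COPII-coated vesicles, while KDEL receptors return escaped chaperones to the ER. When unfolded proteins build up, the sensors IRE1, PERK and ATF6 start the unfolded protein response, which slows translation, splices the Xbp1 transcript and raises chaperone genes. HSCs are the main collagen-producing cells of the injured liver, and procollagen additionally needs the chaperone HSP47 and dedicated prolyl isomerases in the ER. Transcription factors of the CREB3L family, which are cut from the ER and Golgi membrane like ATF6, are known for raising secretory pathway genes in cells that secrete matrix.

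Assigned counts ranged from 6.31 to 13.1 M per library, and 8 libraries held fewer than 10 M, namely chronic 24 h replicates 1 and 2, chronic 72 h replicates 1 and 2 and all 4 of chronic 14 d. Levels are given as CPM, the counts of a gene scaled to a common TMM-adjusted library size. All 12 HSC markers checked, among them Lrat, Reln and Des, were above 0 in all 27 libraries. Their summed level was 23260 to 36569 CPM in healthy and 13793 to 15925 CPM in chronic 24 h HSCs, where 9 of 12 were called lower and 1, Pdgfrb, higher. Markers of other liver cells moved with the groups. The summed 14 hepatocyte markers were at 959 to 1752 CPM in healthy replicates 1 to 3, 7148 CPM in healthy replicate 4, 110 to 484 CPM in acute 24 h and 16087 CPM in chronic 14 d replicate 2. Of 12 macrophage markers, 10 were called higher in acute 7 d HSCs and 8 in chronic 24 h HSCs, at summed levels of 4177 to 10974 and 587 to 3944 CPM against 179 to 732 CPM in healthy. At chronic 24 h, 5 of 9 sinusoidal endothelial markers were called lower, and 5 of 8 B and plasma cell, 2 of 5 cholangiocyte and 3 of 6 mesothelial and portal fibroblast markers higher. Marco was at 0 in 10 libraries, and Tnfrsf17, a plasma cell marker, in 26. The part of these cells in the results was not tested. In bulk samples, fewer cells of a type and less RNA per cell cannot be told apart.

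Compared with healthy HSCs, Sec61a1 and Ssr3, which serve entry into the ER, were called higher 24 h after both forms of injury. So were Sec24d, Sec13, Kdelr2 and Kdelr3, which serve export and retrieval, while most lumenal chaperones did not pass the test. In chronic 24 h HSCs, 17 of 42 members were called higher and 0 lower, where 17.1% of all 18758 genes were called higher and 14% lower. The median log2 difference was 0.80 over the members and -0.03 over all genes. In acute 24 h HSCs, 14 members were called higher and 2 lower, against 15.5% and 18.1% of all genes, with a median of 0.46 over the members and -0.12 over all genes. The counts were 11 higher and 1 lower in acute 72 h (13.1% and 8.81% of all genes) and 8 higher and 1 lower in acute 7 d HSCs (13.1% and 10.6%). By chronic 72 h, 4 were called higher and 5 lower (11% and 9%), and by chronic 14 d, 1 was called higher and 2 lower (5.12% and 3.49%). The members' summed share of all counts was 0.669% to 1.20% in healthy, 1.36% to 2.01% in chronic 24 h and 0.688% to 0.991% in chronic 14 d libraries, so that the chronic 24 h libraries did not overlap with either. With 3 or 4 libraries per group, single genes often did not overlap. In acute 24 h, 12 members lay wholly above healthy and 3 below, against 19.7% and 20.1% of all genes. In chronic 24 h these were 12 and 0, against 14.7% and 11.6%. Of all genes, 14.2% lay wholly above healthy in acute 72 h, 14.4% in acute 7 d and 12% in chronic 72 h.

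**Figure D1:**
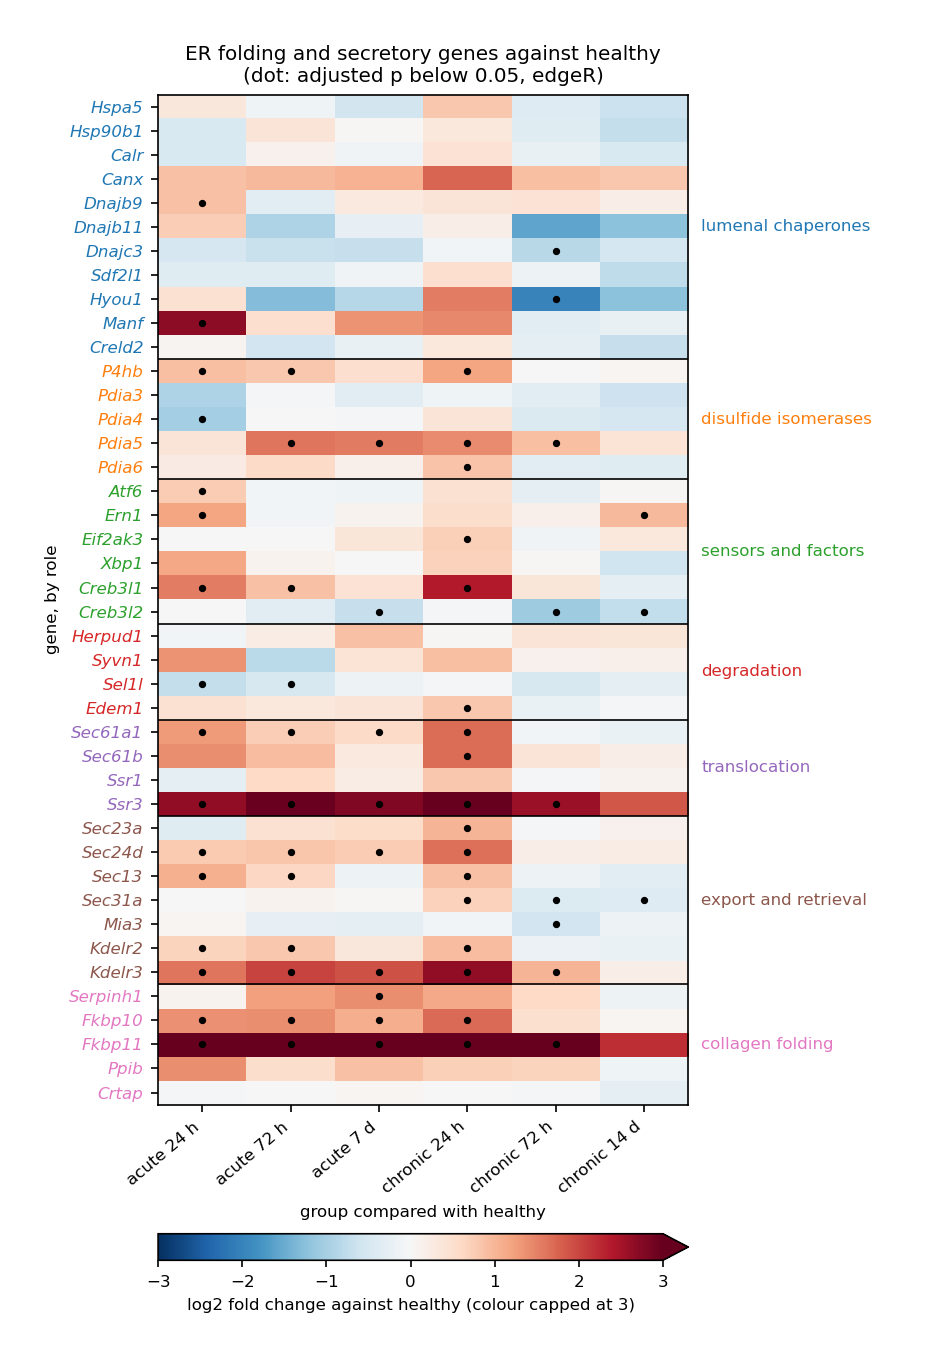
Log2 fold change of each of the 42 genes (rows, grouped by role) in the 6 injured groups against healthy HSCs (columns). Red is higher and blue lower, the colour stops at 3, and a dot marks an adjusted p below 0.05: chronic 24 h carries 17 dots, of which 6 of 7 export genes and none of the 11 lumenal chaperones. Over all genes, 17.1% were called higher in chronic 24 h.

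Called members were counted by role in chronic 24 h HSCs, where 17.1% of all genes were called higher. Called higher were 6 of 7 export and retrieval genes, 3 of 4 translocation genes and 3 of 5 disulfide isomerases. The counts were 0 of 11 lumenal chaperones, 2 of 6 sensors and factors, 1 of 4 degradation genes and 2 of 5 collagen folding factors. Of the 17 calls, those of Eif2ak3, Edem1, Sec61b and Sec23a were lost with at least 1 library left out, and 13 were kept. The median log2 difference was 1.67 over the translocation genes, 0.93 over the export genes, 0.86 over the isomerases and 0.44 over the lumenal chaperones, of which 10 of 11 had a positive value, beside -0.03 over all genes. Summed over the 7 export genes, the level was 562 to 659 CPM in healthy, 839 to 946 CPM in acute 24 h and 904 to 1644 CPM in chronic 24 h HSCs, with no overlap between healthy and either injured group. The 4 translocation genes summed to 535 to 791 CPM in healthy, 1505 to 1635 CPM in acute 24 h and 1817 to 2882 CPM in chronic 24 h HSCs. The 11 lumenal chaperones summed to 2634 to 5062 CPM in healthy and 3782 to 6704 CPM in chronic 24 h HSCs, and these ranges overlapped. The highest healthy value was that of replicate 4. Leaving out healthy replicate 4, the library with the most hepatocyte marker counts of its group, brought the call to 3 of 11 chaperones in chronic 24 h HSCs (Hspa5, Calr and Hyou1). Of all genes, 3119 of 18712 were then called higher. Over all members the count lay between 14 and 22 when each library was left out in turn, and over all genes between 2755 and 3173. With all libraries kept and the replicate number as a block, the same 3 of 11 chaperones were called (3202 of 18758 genes higher). Hyou1 was also called by DESeq2 and with depth class (under 10 M counts or not) as a term.

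Stress-responsive motifs were searched in the promoters of these genes, because the unfolded protein response acts through them. RefSeq (build GRCm38.p6) gave a promoter for 35 of the 42 members, read from 250 bases before to 50 after the transcription start that RefSeq gives. The ER stress response element (ERSE, CCAAT and CCACG with any 9 bases between them), bound by NF-Y with ATF6 or XBP1, was found on either strand in 8 of 35 members, Calr, Canx, Creld2, Dnajc3, Hsp90b1, Hspa5, Pdia6 and Syvn1, and in 37 of 27025 genes (0.137%). ERSE-II (ATTGG and CCACG with any 1 base between them) was found in 2 members, Dnajb11 and Herpud1, and in 12 genes (0.0444%). The unfolded protein response element (UPRE, TGACGTGG), bound by XBP1 and ATF6 and close to the sites of CREB3L factors, was found in 3 members, Kdelr3, Sec23a and Sec24d, and in 193 genes (0.714%). CCACG alone, which is contained in the first 2 motifs and, within CCACGTCA, in the reverse complement of the last, was found in 29 of 35 members and 35.5% of genes. The promoters shown are those of the chaperones Hspa5 and Hsp90b1, the degradation gene Herpud1 and the export genes Kdelr3 and Sec24d, because together they carry each kind of motif. Each is the 250 bases before the RefSeq start, 5′ to 3′ on the strand of the gene, with the match in capitals. The gene positions given below for Hspa5 and Sec24d, from GENCODE, begin within these stretches.
Hspa5 (chr2:34771840-34772089, plus strand, GRCm38.p6): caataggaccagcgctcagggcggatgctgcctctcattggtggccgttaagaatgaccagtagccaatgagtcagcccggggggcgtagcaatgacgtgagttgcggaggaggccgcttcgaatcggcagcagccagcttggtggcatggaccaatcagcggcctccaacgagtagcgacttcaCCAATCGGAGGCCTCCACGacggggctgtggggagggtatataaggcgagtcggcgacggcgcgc
Hsp90b1 (chr10:86705445-86705694, minus strand, GRCm38.p6): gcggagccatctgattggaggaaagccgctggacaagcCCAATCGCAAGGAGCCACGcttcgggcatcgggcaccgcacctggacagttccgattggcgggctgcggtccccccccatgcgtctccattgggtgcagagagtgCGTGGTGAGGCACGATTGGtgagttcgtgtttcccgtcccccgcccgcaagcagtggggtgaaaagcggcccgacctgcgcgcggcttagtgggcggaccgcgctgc
Herpud1 (chr8:94386179-94386428, plus strand, GRCm38.p6): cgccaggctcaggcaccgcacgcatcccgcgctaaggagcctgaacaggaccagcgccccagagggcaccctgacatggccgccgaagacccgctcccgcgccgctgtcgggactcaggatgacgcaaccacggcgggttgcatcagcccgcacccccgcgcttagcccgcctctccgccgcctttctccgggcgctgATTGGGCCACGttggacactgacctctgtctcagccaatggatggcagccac
Kdelr3 (chr15:79516158-79516407, plus strand, GRCm38.p6): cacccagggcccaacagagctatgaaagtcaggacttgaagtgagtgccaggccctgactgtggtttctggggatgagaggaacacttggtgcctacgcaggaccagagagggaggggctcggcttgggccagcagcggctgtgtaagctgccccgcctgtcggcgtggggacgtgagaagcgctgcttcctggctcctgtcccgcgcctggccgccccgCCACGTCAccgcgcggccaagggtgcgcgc
Sec24d (chr3:123267246-123267495, plus strand, GRCm38.p6): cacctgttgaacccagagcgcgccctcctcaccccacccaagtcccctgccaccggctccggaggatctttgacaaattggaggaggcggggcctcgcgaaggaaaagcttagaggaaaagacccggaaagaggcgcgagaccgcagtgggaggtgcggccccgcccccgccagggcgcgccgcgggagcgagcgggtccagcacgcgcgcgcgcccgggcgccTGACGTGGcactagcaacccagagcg
Hsp90b1 held 2 ERSE matches, of which the second read on the reverse strand, and the Kdelr3 match (CCACGTCA, 30 to 23 bases before the start) was also on the reverse strand. A match is a description of the letters and not a measured site. The members were chosen by name for functions that include the unfolded protein response. Their share beside that of all genes is therefore a description and not a test.

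**Figure D2:**
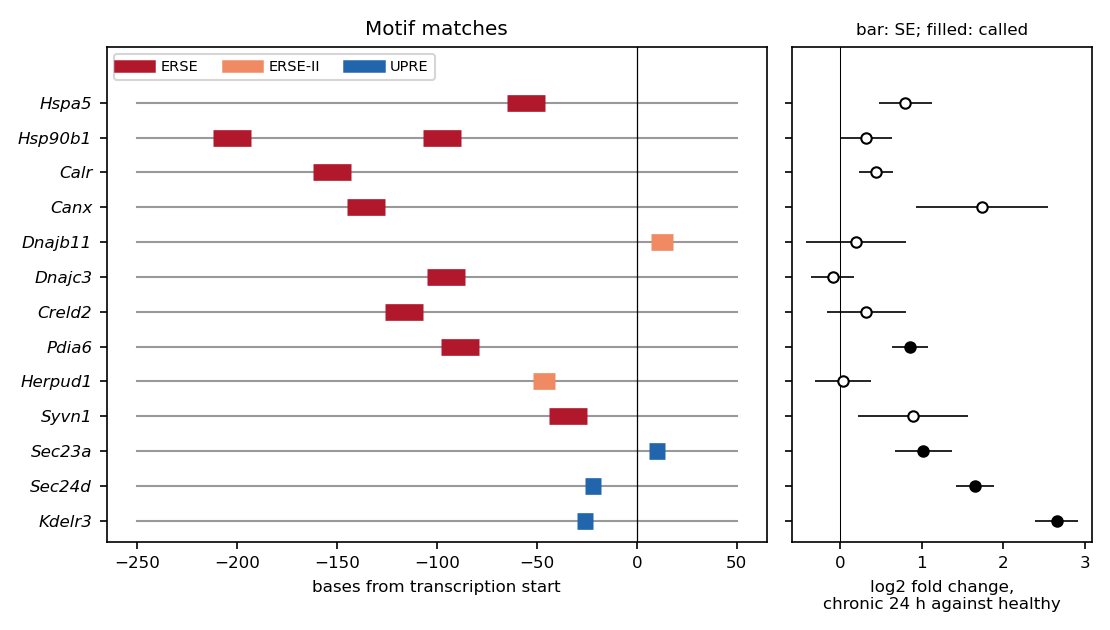
Positions of motif matches from 250 bases before to 50 bases after the transcription start (left, bases from the start) in the 13 members that held one, beside their log2 fold change in chronic 24 h against healthy HSCs (right; bar, standard error; filled, adjusted p below 0.05). Kdelr3, Sec23a, Sec24d and Pdia6 are filled, where 17.1% of all genes were called higher. Hspa5 and Calr also passed without healthy replicate 4, and Sec23a lost its call without any of 5 libraries.

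The lumenal chaperones bind nascent proteins, and BiP (Hspa5), the ATPase at their centre, is the standard readout of ER stress. Hspa5 lies at chr2:34771970-34777547 on the plus strand (GRCm38). It measured 1038, 1301, 1480.0 and 2274 CPM in healthy, 1578, 1795 and 2388 CPM in acute 24 h and 1469.6, 3402, 3110.1 and 2647 CPM in chronic 24 h HSCs. Of the chronic 24 h libraries, 3 were above every other library in the study and replicate 1 lay among the healthy values. The log2 difference from healthy was 0.80 ± 0.33 (SE; adjusted p = 0.0655) in chronic 24 h HSCs and 0.33 ± 0.35 (adjusted p = 0.503) in acute 24 h HSCs. Without chronic 24 h replicate 1 the chronic difference was 1.00 (adjusted p = 0.0231), and without healthy replicate 4 it was 1.06 (adjusted p = 0.0226). From chronic 24 h, Hspa5 fell to 1246, 1284, 1108 and 990.3 CPM at 72 h and 1111, 579, 979.6 and 1247 CPM at 14 d, without overlap with chronic 24 h in either group. These falls measured -1.20 ± 0.33 (adjusted p = 0.0146) and -1.44 ± 0.33 (adjusted p = 0.00288). The call at 72 h was lost with only the libraries of higher depth and with only those of lower depth.

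GRP94 (Hsp90b1), the ER member of the HSP90 family, measured 563, 384, 358 and 942 CPM in healthy, 199.9, 396 and 629.6 CPM in acute 24 h and 622, 686, 874 and 626 CPM in chronic 24 h HSCs. Neither injured group was called against healthy, at -0.46 ± 0.34 (adjusted p = 0.321) and 0.32 ± 0.31 (adjusted p = 0.465), and the values of both overlapped with those of healthy HSCs. Calreticulin (Calr), a lectin chaperone that binds monoglucosylated proteins, measured 580.3, 622, 601 and 1014 CPM in healthy, 429.9, 457 and 664 CPM in acute 24 h and 769, 932, 1119 and 1011 CPM in chronic 24 h HSCs. All 4 chronic 24 h values of Calr were above all 3 acute 24 h values, and it was called higher in that comparison (0.89 ± 0.23, adjusted p = 0.00645). Against healthy, where replicate 4 stood apart from the other 3, the chronic 24 h difference of Calr was 0.44 ± 0.21 (adjusted p = 0.107). Without healthy replicate 4 it was 0.67 (adjusted p = 0.0134). Sdf2l1, a cofactor of BiP, measured 34.9, 36.4, 64.2 and 109 CPM in healthy, 26.1, 47.3 and 68.6 CPM in acute 24 h and 48.9, 148, 77.3 and 72.8 CPM in chronic 24 h HSCs, with overlap, and was called in 0 of the 6 comparisons with healthy by edgeR (unadjusted p = 0.302 in chronic 24 h HSCs).

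Hyou1, a large chaperone that exchanges nucleotide on BiP, had the widest swing of the chaperones in chronic injury. It measured 39.8, 22.4, 54.2 and 143 CPM in healthy, 109, 179.8, 217 and 241 CPM in chronic 24 h, 15.7, 11.9, 21.9 and 14.7 CPM in chronic 72 h and 16.7, 14.3, 23.7 and 55.5 CPM in chronic 14 d HSCs. The chronic 24 h values lay above those of the later chronic groups without overlap, and the chronic 72 h values below all healthy ones. Hyou1 fell by 3.54 ± 0.66 on the log2 scale from chronic 24 h to 72 h (adjusted p = 0.000752) and was lower than healthy at chronic 72 h (-2.01 ± 0.63, adjusted p = 0.0256). The latter was lost without healthy replicate 4 (-1.27, adjusted p = 0.129) and without chronic 72 h replicate 1, 2 or 4, while without healthy replicate 4 the chronic 24 h difference from healthy passed (2.27, adjusted p = 0.00928; 1.53 ± 0.61 and adjusted p = 0.0606 with all libraries). Manf, a secreted cofactor of BiP, rose in acute 24 h HSCs, from 29.0, 36.3, 49.0 and 34.1 to 63.2, 281 and 366 CPM. Manf overlaps Rbm15b (group means 77.6 to 106 CPM). The groups did not overlap, although replicate 1 of acute 24 h was close to healthy (2.67 ± 0.89, adjusted p = 0.0224). The call was lost without acute 24 h replicate 3 (2.21, adjusted p = 0.09), without replicate 2 (2.53, adjusted p = 0.0576) and without healthy replicate 1 (2.57, adjusted p = 0.0527).

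Of the other co-chaperones, Dnajb9, an ERdj protein induced by IRE1 and XBP1, was called higher in acute 24 h HSCs (0.88 ± 0.32, adjusted p = 0.0369). Its healthy range was 66.8 to 104 CPM and its acute 24 h values were 95.9, 162 and 227 CPM, with replicate 1 inside the healthy range. That call did not pass when acute 24 h replicate 2 or 3 or healthy replicate 2 or 3 was left out (adjusted p up to 0.259). Dnajc3, which inhibits PERK, was lower in chronic 72 h HSCs, at 91.9 to 175 CPM against 182 to 299.7 CPM in healthy (-0.83 ± 0.26, adjusted p = 0.0276). The Dnajc3 call was lost with any of healthy replicates 3 and 4 or chronic 72 h replicates 1, 2 and 4 left out (adjusted p up to 0.0952). Calnexin (Canx), the membrane-bound partner of calreticulin, measured 28.2, 331, 384 and 63.0 CPM in healthy and 474, 540.4, 775 and 906 CPM in chronic 24 h HSCs. Every chronic 24 h value of Canx was higher than every healthy one, but its healthy libraries fell into a low and a high pair, and the difference of 1.74 ± 0.81 did not pass (adjusted p = 0.111). Dnajb11 and Creld2 were not called in any of the comparisons with healthy by edgeR, with unadjusted p of 0.757 and 0.511 in chronic 24 h HSCs.

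In several groups, 1 library held the highest level of most lumenal chaperones. Acute 7 d replicate 4 held the highest level of its group for 11 of 11 lumenal chaperones and the lowest for 6 of 7 export genes. Acute 24 h replicate 3 was highest in 10 of 11 chaperones, healthy replicate 4 and chronic 72 h replicate 4 in 8 each, and chronic 14 d replicate 4 in 7. The other groups were more divided, since replicates 1 to 4 were highest in 1, 2, 2 and 6 chaperones in acute 72 h. In chronic 24 h they were highest in 0, 6, 3 and 2. These ranks were not counted over all genes. Chronic 24 h replicate 1 was lowest in 10 of 11 chaperones and 7 of 7 export genes. Beside this, the summed level of 11 cytosolic and mitochondrial heat shock genes was 11839.9 CPM in acute 7 d replicate 4 and 1593 to 2571 CPM in the other 3 libraries of that group, 11547 CPM in chronic 14 d replicate 4 against 2999.6 to 5413 CPM, and 4898 CPM in healthy replicate 4 against 4752 to 9685 CPM. The chronic 24 h libraries had 10908, 23827, 4910.0 and 4249 CPM. The part of a heat shock response in these levels was not tested.

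The disulfide isomerases form and rearrange disulfide bonds. P4hb, which is also the beta subunit of collagen prolyl 4-hydroxylase, measured 725, 779, 775 and 912 CPM in healthy, 1820.1, 676 and 1989.9 CPM in acute 24 h, 1518, 1325, 1297 and 1426 CPM in acute 72 h and 1921, 795, 2212 and 2309.7 CPM in chronic 24 h HSCs. Replicate 2 of both 24 h groups lay at or near the healthy level while the other libraries of both groups lay above all healthy values. P4hb was called higher in chronic 24 h (1.18 ± 0.27, adjusted p = 0.00158), acute 24 h (0.91 ± 0.28, adjusted p = 0.0157) and acute 72 h HSCs (0.80 ± 0.27, adjusted p = 0.0324). Both acute calls were lost with 1 library left out, with adjusted p of up to 0.127 at 24 h (without acute 24 h replicate 1 or 3) and up to 0.0738 at 72 h (without healthy replicate 1, 2 or 3 or acute 72 h replicate 1 or 4). Pdia6, an isomerase that also dampens the sensor IRE1, rose in chronic 24 h HSCs, from 256, 239.8, 292 and 491 to 424, 632, 637 and 631 CPM, with overlap between healthy replicate 4 and chronic 24 h replicate 1 (0.86 ± 0.22, adjusted p = 0.00452).

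Pdia4 was low 24 h after a first injury and not 24 h after repeated injury. This isomerase measured 332, 357, 496 and 570.3 CPM in healthy, 166, 192 and 288 CPM in acute 24 h and 529, 646, 560.3 and 542 CPM in chronic 24 h HSCs. The 3 acute values lay below all healthy values and the 4 chronic values above all acute ones, as in 20.1% and 17.1% of all genes. It fell in acute 24 h HSCs (-1.03 ± 0.21, adjusted p = 0.000493), to 49.0% of the healthy level, and was higher in chronic 24 h than in acute 24 h HSCs by 1.40 ± 0.21 (adjusted p = 4.52e-05). The chronic 24 h difference from healthy was 0.38 ± 0.19 (adjusted p = 0.135), and 0.53 (adjusted p = 0.0414) without healthy replicate 4. Later, Pdia4 spanned 387 to 485 CPM in acute 72 h and 350 to 548 CPM in acute 7 d HSCs. It spanned 265 to 381 CPM in chronic 72 h and 274 to 354 CPM in chronic 14 d HSCs. All 4 ranges overlapped with healthy. Pdia5, which reduces a disulfide in ATF6, measured 9.61, 7.12, 8.09 and 5.11 CPM in healthy, 9.53, 10.9 and 8.87 CPM in acute 24 h, 21.9, 17.6, 25.4 and 26.3 CPM in acute 72 h, 29.1, 27.1, 17.8 and 13.9 CPM in acute 7 d and 9.59, 16.7, 29.9 and 23.1 CPM in chronic 24 h HSCs. Thus it was still near the healthy level 1 day after a first injection, and all acute 72 h and acute 7 d values were above the healthy ones. Pdia5 was called higher in acute 72 h (1.61 ± 0.28, adjusted p = 0.000241), acute 7 d (1.55 ± 0.28) and chronic 24 h HSCs (1.41 ± 0.28, adjusted p = 0.000494). It was also called in chronic 72 h HSCs (0.89 ± 0.28, adjusted p = 0.0263), a call lost without healthy replicate 2 or 4 or chronic 72 h replicate 2 or 4 (adjusted p up to 0.072). Pdia3, the partner of the lectin chaperones, spanned 195 to 570.3 CPM in healthy and 134 to 268 CPM in acute 24 h HSCs and was not called (-0.94 ± 0.37, adjusted p = 0.0518). It was called lower there without acute 24 h replicate 3 (-1.30, adjusted p = 0.0218), healthy replicate 1 or healthy replicate 3.

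Of the 3 sensors, Atf6 and Ern1 were called higher in acute 24 h and Eif2ak3 in chronic 24 h HSCs. Atf6, whose product is cut in the Golgi to release a transcription factor, measured 55.5, 64.4, 67.2 and 64.7 CPM in healthy, 114, 85.6 and 123 CPM in acute 24 h and 71.5, 75.6, 105 and 93 CPM in chronic 24 h HSCs. Both injured groups were above all healthy values, but the difference was called in acute 24 h HSCs (0.77 ± 0.19, adjusted p = 0.00297) and not in chronic 24 h HSCs (0.46 ± 0.18, adjusted p = 0.0543). Without chronic 24 h replicate 1 the latter passed (0.54, adjusted p = 0.0335). Ern1, which encodes the kinase and endonuclease IRE1, measured 10.1, 10.4, 12.0 and 14.6 CPM in healthy, 25.6, 22.5 and 32.9 CPM in acute 24 h, 10.2, 12.6, 12.8 and 8.67 CPM in acute 72 h and 13.5, 14.4, 18.1 and 21.7 CPM in chronic 24 h HSCs. All acute 24 h values were above all values of the other groups named. Ern1 rose at acute 24 h (1.19 ± 0.30, adjusted p = 0.00341) and fell from acute 24 h to 72 h (-1.29 ± 0.30, adjusted p = 0.00284). It was also called at chronic 14 d (0.98 ± 0.28, adjusted p = 0.0333), at 14.0, 14.3, 26.2 and 38.3 CPM, where replicates 3 and 4 were high and the others within the healthy range. That call was lost without chronic 14 d replicate 3 (0.95, adjusted p = 0.0707) or 4 (0.67, adjusted p = 0.13) or healthy replicate 1, 2 or 3.

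Eif2ak3 encodes PERK, the kinase that slows translation. Its values were 35.7, 30.6, 37.3 and 49.9 CPM in healthy, 36.8, 30.4 and 46.7 CPM in acute 24 h and 48.6, 56.7, 82.7 and 64.0 CPM in chronic 24 h HSCs. All 4 chronic values were above the 3 acute ones, while the lowest chronic value was under the highest healthy one. Eif2ak3 was higher in chronic 24 h HSCs than in healthy (0.71 ± 0.22, adjusted p = 0.0145) and than in acute 24 h HSCs (0.73 ± 0.24, adjusted p = 0.0293). Neither call was kept without chronic 24 h replicate 3 (0.56, adjusted p = 0.0697 against healthy and 0.57, adjusted p = 0.102 against acute 24 h). The first was also lost without healthy replicate 2 (0.62, adjusted p = 0.0541). The second was also lost without acute 24 h replicate 1 or 2 or chronic 24 h replicate 4 (adjusted p up to 0.156). Xbp1, the transcript that IRE1 splices, varied widely within groups, with 115, 80.6, 761 and 704 CPM in healthy and 206, 1439 and 1149 CPM in acute 24 h HSCs. It was called in none of the 6 comparisons with healthy (1.17 ± 0.93, unadjusted p = 0.225 and adjusted p = 0.366 in acute 24 h HSCs by edgeR), and a gene count does not tell spliced from unspliced Xbp1.

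**Figure D3:**
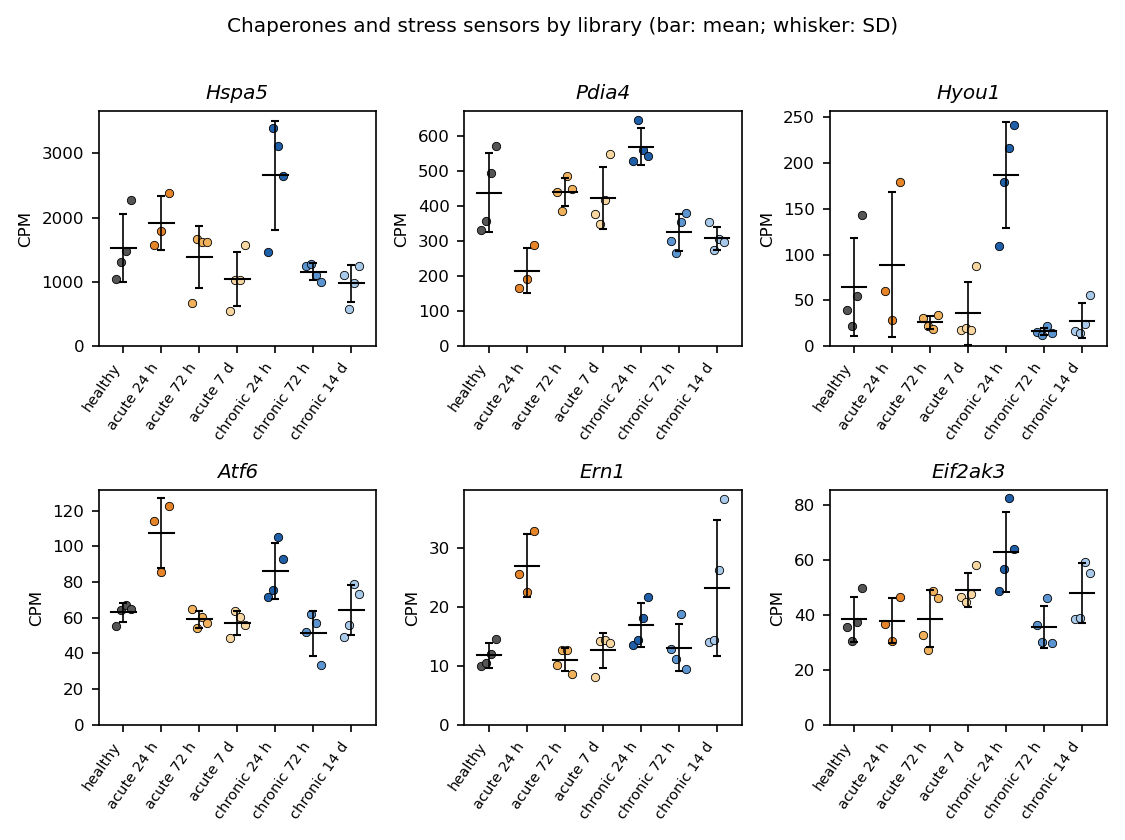
Level in CPM (vertical axis) of 3 chaperone and isomerase genes and 3 sensor genes in each library of the 7 groups (bar, mean; whisker, SD). Atf6 and Ern1 peak in acute 24 h, Hspa5, Pdia4, Hyou1 and Eif2ak3 have their highest mean in chronic 24 h, and Pdia4 is lowest in acute 24 h.

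Creb3l1 had the lowest adjusted p of the sensors and factors in both 24 h groups. It encodes OASIS, a membrane-bound factor required for collagen secretion by osteoblasts, and lies at chr2:91982328-92024502 on the minus strand (GRCm38). It measured 51.9, 69.6, 63.6 and 42.8 CPM in healthy, 192, 145 and 162 CPM in acute 24 h and 121, 131, 84.5 and 82.0 CPM in acute 72 h HSCs. In chronic injury it measured 317, 279.9, 273 and 307 CPM at 24 h, 80.0, 61.9, 81.4 and 70.4 CPM at 72 h and 58.3, 49.3, 48.6 and 31.7 CPM at 14 d. The chronic 24 h values were above every other library, and those of acute 24 h above every library outside chronic 24 h. Creb3l1 rose 5.16-fold in chronic 24 h (2.37 ± 0.20, adjusted p = 6.36e-09) and 2.92-fold in acute 24 h HSCs (1.55 ± 0.20, adjusted p = 3.82e-06). It was higher in the former than in the latter by 0.82 ± 0.21 (adjusted p = 0.00563). From chronic 24 h it fell by 2.0 ± 0.19 to 72 h (adjusted p = 6.76e-07) and by 2.65 ± 0.20 to 14 d (adjusted p = 5.35e-09).

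The related factor Creb3l2 did not follow. It measured 98.2, 109, 122 and 77.0 CPM in healthy, 68.7, 97.7, 96.8 and 128 CPM in chronic 24 h, 45.6, 39.9, 59.5 and 49.0 CPM in chronic 72 h and 58.1, 63.0, 47.9 and 80.6 CPM in acute 7 d HSCs. All chronic 72 h values lay below all healthy and chronic 24 h values. Creb3l2 was lower than healthy at chronic 72 h (-1.07 ± 0.22, adjusted p = 0.00102). It was also called lower at acute 7 d (-0.70 ± 0.21, adjusted p = 0.0192) and chronic 14 d (-0.73 ± 0.21, adjusted p = 0.0352). Leaving out healthy replicate 3 ended both of these calls (-0.60, adjusted p = 0.066 and -0.63, adjusted p = 0.111). Acute 7 d replicates 1 and 3 also ended the acute call, and healthy replicates 1 and 2 and chronic 14 d replicates 1, 2 and 3 the chronic one, with adjusted p of up to 0.0733 and 0.151. At chronic 24 h its difference from healthy was -0.05 ± 0.21.

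ER-associated degradation returns misfolded proteins to the cytosol for the proteasome. Sel1l, the adaptor of the HRD1 ligase, fell in acute 24 h HSCs from 186, 216, 243 and 243 to 135, 119 and 153 CPM, without overlap (-0.71 ± 0.19, adjusted p = 0.0051). In chronic 24 h HSCs it measured 180.3, 194, 242 and 241 CPM, all above acute 24 h (0.66 ± 0.19, adjusted p = 0.0139), a difference that was lost without acute 24 h replicate 2 (0.58, adjusted p = 0.0845) or chronic 24 h replicate 4 (0.54, adjusted p = 0.0514). Sel1l was also called lower at acute 72 h (-0.48 ± 0.17, adjusted p = 0.0461), and leaving out healthy replicate 2, 3 or 4 or acute 72 h replicate 1, 2 or 4 ended that call (adjusted p up to 0.133). Edem1, which takes mannose-trimmed proteins to degradation, was called higher in chronic 24 h HSCs, at 95.3, 145, 172 and 179 CPM against 61.7, 68.8, 81.5 and 125 CPM (0.81 ± 0.24, adjusted p = 0.0134; 0.69, adjusted p = 0.0521 without healthy replicate 1). Herpud1, a partner of HRD1 and a target of all arms of the unfolded protein response, measured 121, 57.2, 199.9 and 153 CPM in healthy, 98.6, 136 and 142 CPM in acute 24 h and 137, 171, 187 and 49.6 CPM in chronic 24 h HSCs. These values overlapped, and the log2 difference was -0.08 ± 0.37 in acute 24 h and 0.03 ± 0.34 in chronic 24 h HSCs (95% intervals -0.81 to 0.65 and -0.64 to 0.71). Syvn1, the HRD1 ligase itself, spanned 16.6 to 113 CPM in healthy and 96.7 to 129.8 CPM in acute 24 h HSCs. With all libraries it was not called (1.35 ± 0.72, adjusted p = 0.161), and without healthy replicate 3 it was (2.46, adjusted p = 0.0123).

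Of the 4 translocation genes, 2 were called higher in acute 24 h and 3 in chronic 24 h HSCs. Sec61a1, the pore of the Sec61 channel at chr6:88503579-88518905 on the minus strand (GRCm38), measured 276, 355, 359 and 322 CPM in healthy and 748, 776 and 879 CPM in acute 24 h HSCs. It measured 589, 527, 531 and 541 CPM in acute 72 h and 800.1, 1094, 1109.7 and 1171 CPM in chronic 24 h HSCs. Each injured group lay above the healthy values without overlap. The rise was 2.44-fold in acute 24 h (1.29 ± 0.15, adjusted p = 1.06e-06) and 3.18-fold in chronic 24 h HSCs (1.67 ± 0.15, adjusted p = 1.26e-08). The difference between the 2 groups was 0.38 ± 0.15 (adjusted p = 0.0794), and it passed without chronic 24 h replicate 1 (0.49, adjusted p = 0.0237). It remained above healthy in acute 72 h and acute 7 d HSCs (0.74 and 0.57), whereas in chronic 72 h and 14 d HSCs it measured 261 to 362 and 260.0 to 302 CPM, overlapping with healthy. The falls from chronic 24 h were -1.76 ± 0.15 (adjusted p = 7.72e-08) and -1.86 ± 0.15 (adjusted p = 1.13e-08).

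The other translocation genes were less even between libraries. Sec61b, a small subunit of the channel, measured 28.3, 25.2, 22.6 and 37.3 CPM in healthy and 45.6, 82.4, 134 and 100.5 CPM in chronic 24 h HSCs, without overlap (1.68 ± 0.59, adjusted p = 0.0326). In acute 7 d HSCs it measured 60.1, 38.0, 0.724 and 40.4 CPM, so that replicate 3 was nearly without it. The chronic 24 h call was lost when healthy replicate 1, 2 or 3 or chronic 24 h replicate 3 or 4 was left out (adjusted p up to 0.0934). Ssr3, a subunit of the translocon-associated protein complex, measured 27.1, 38.0, 204 and 54.9 CPM in healthy, 774, 666 and 86.9 CPM in acute 24 h, 608, 647, 967 and 621 CPM in chronic 24 h and 303, 26.6, 357 and 487 CPM in chronic 14 d HSCs. It was called higher at 2.65 ± 0.70 (adjusted p = 0.00518) in acute 24 h, 3.13 ± 0.69 (adjusted p = 0.0013) in chronic 24 h and 2.58 ± 0.67 (adjusted p = 0.00845) in chronic 72 h HSCs. Acute 24 h replicate 3 lay within the healthy range, and the acute 24 h call was lost with only the groups compared. At chronic 14 d, where replicate 2 was at the healthy level, the difference of Ssr3 was 1.86 ± 0.66 (adjusted p = 0.0816). It passed without chronic 14 d replicate 2 (2.28, adjusted p = 0.018) or without healthy replicate 3 (2.87, adjusted p = 0.0107). Ssr1, of the same complex, measured 49.3, 47.7 and 456 CPM in acute 24 h against 203, 212, 206 and 289 CPM in healthy HSCs. Its difference of -0.30 ± 0.58 was not called, but without acute 24 h replicate 3 it was -2.23 (adjusted p = 0.00146).

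Export and retrieval was the role with the most members called at chronic 24 h. Kdelr3, a receptor that returns KDEL-tagged chaperones from the Golgi, lies at chr15:79516411-79527739 on the plus strand (GRCm38). It measured 40.2, 31.0, 32.9 and 34.7 CPM in healthy, 102, 111 and 105 CPM in acute 24 h, 127, 121, 164 and 152 CPM in acute 72 h and 174, 127, 146 and 75.8 CPM in acute 7 d HSCs. In chronic injury it measured 135, 225, 264 and 251 CPM at 24 h, 55.5, 49.4, 66.6 and 111 CPM at 72 h and 51.3, 38.6, 42.2 and 28.1 CPM at 14 d. No library of the 4 first injured groups or of chronic 72 h overlapped with healthy, and chronic 14 d did. The rise was 6.30-fold in chronic 24 h (2.66 ± 0.27, adjusted p = 9.69e-08) and 3.05-fold in acute 24 h HSCs (1.61 ± 0.27, adjusted p = 7.5e-05), with a difference between the groups of 1.05 ± 0.28 (adjusted p = 0.00875). At chronic 72 h it was still called (1.03 ± 0.25, adjusted p = 0.00574) and at chronic 14 d it was not (0.21 ± 0.25). Its promoter, shown above, held a UPRE. Kdelr3 overlaps Ddx17 in the annotation, and whether the counting used strand is not given in the sources used here. The mean of Ddx17 lay between 41.5 and 60.3 CPM in the 7 groups, while that of Kdelr3 ran from 34.7 CPM in healthy to 219 CPM in chronic 24 h HSCs. Kdelr2, the closely related receptor, was called higher in acute 24 h (0.66 ± 0.17), acute 72 h (0.81 ± 0.16) and chronic 24 h HSCs (0.93 ± 0.16, adjusted p = 9.73e-05), at 115 to 129 CPM in healthy and 177 to 285 CPM in chronic 24 h HSCs.

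Of the COPII coat genes, Sec24d and Sec13 were called higher in acute 24 h, and these with Sec23a and Sec31a in chronic 24 h HSCs. Sec24d, a cargo adaptor needed for the export of procollagen, at chr3:123267455-123365641 on the plus strand (GRCm38), measured 67.9, 96.7, 101 and 111 CPM in healthy, 135, 147 and 206 CPM in acute 24 h, 130.4, 147, 214 and 179 CPM in acute 72 h and 188, 286, 372 and 341 CPM in chronic 24 h HSCs. None of these injured libraries overlapped with healthy. Sec24d was called higher in chronic 24 h (1.65 ± 0.23, adjusted p = 8.05e-06), acute 72 h (0.83 ± 0.23), acute 24 h (0.79 ± 0.24, adjusted p = 0.0143) and acute 7 d HSCs (0.75 ± 0.23). The acute 24 h call was lost without acute 24 h replicate 3 (0.58, adjusted p = 0.111), and leaving out healthy replicate 1 gave 0.66 (adjusted p = 0.0502) at acute 24 h and 0.62 (adjusted p = 0.0691) at acute 7 d. Sec23a, the GTPase-activating partner of Sec24, stayed at 53.2, 41.1 and 58.3 CPM in acute 24 h against 55.5, 44.5, 57.8 and 102 CPM in healthy and reached 63.3, 91.8, 204 and 169 CPM in chronic 24 h HSCs. Its values overlapped with healthy in both, and the chronic difference was 1.02 ± 0.35 (adjusted p = 0.0275). Leaving out healthy replicate 1, 2 or 3 or chronic 24 h replicate 3 or 4 ended this call, with adjusted p of up to 0.131.

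The outer coat of COPII vesicles is a cage of Sec13 and Sec31a. Sec13, which is also part of the nuclear pore, measured 70.7, 64.6, 60.2 and 76.7 CPM in healthy, 158, 141 and 131 CPM in acute 24 h and 69.7, 118, 159 and 156 CPM in chronic 24 h HSCs, where replicate 1 stayed within the healthy range. It was called higher in acute 24 h (1.07 ± 0.22, adjusted p = 0.000492), chronic 24 h (0.89 ± 0.20, adjusted p = 0.00179) and acute 72 h HSCs (0.62 ± 0.20, adjusted p = 0.0298), and the last call was lost without healthy replicate 2 or 3 or acute 72 h replicate 2 (adjusted p up to 0.138). Sec31a spanned 159 to 197 CPM in healthy, 151 to 197 CPM in acute 24 h and 228 to 316 CPM in chronic 24 h HSCs, and was called higher in the last (0.70 ± 0.12, adjusted p = 0.000126). At chronic 72 h and 14 d it was called lower than healthy (-0.41 ± 0.12 and -0.39 ± 0.12, adjusted p = 0.0193 and 0.0492). Both calls were lost without healthy replicate 3 (-0.34, adjusted p = 0.0781 and -0.31, adjusted p = 0.162), the first also without chronic 72 h replicate 2 or 4, and the second also without healthy replicate 1 or 2 or any chronic 14 d library (adjusted p up to 0.162). Mia3, which encodes TANGO1, the receptor that loads procollagen into COPII carriers, was not called higher in any comparison. It spanned 37.3 to 57.8 CPM in healthy and 43.2 to 53.8 CPM in chronic 24 h HSCs (-0.08 ± 0.15, 95% interval -0.38 to 0.22) and was called lower at chronic 72 h (-0.56 ± 0.15, adjusted p = 0.011). That call was lost with library size alone, with depth class as a term, with only libraries of higher depth and with only the groups compared.

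**Figure D4:**
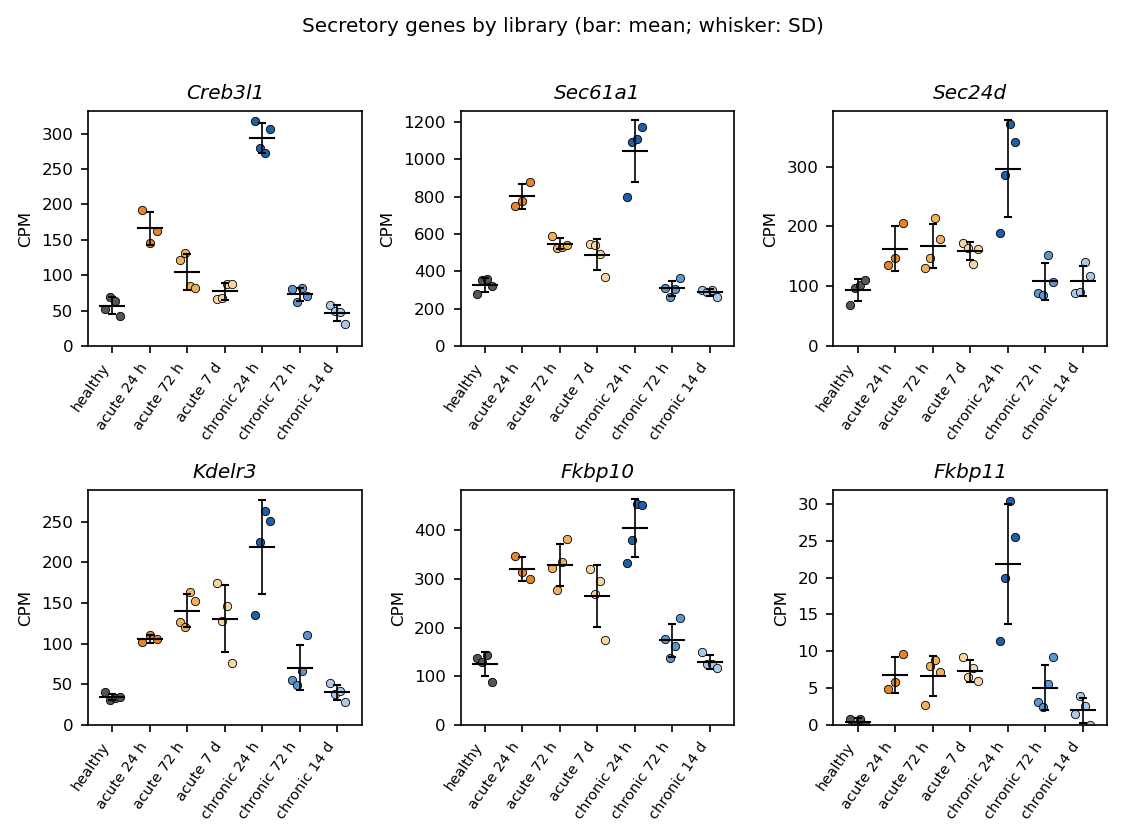
Level in CPM (vertical axis) of Creb3l1, Sec61a1, Sec24d, Kdelr3, Fkbp10 and Fkbp11 in each library of the 7 groups (bar, mean; whisker, SD). In all 6 panels the highest mean is that of chronic 24 h, and the chronic 14 d range overlaps with the healthy one, which for Fkbp11 is 0 to 3.95 CPM against 0 to 0.843 CPM.

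Collagen folding factors followed 3 courses. HSP47 (Serpinh1), the collagen-specific chaperone, measured 529, 1237, 847 and 2185 CPM in healthy, 1421, 271 and 2176 CPM in acute 24 h, 1556, 1517, 4116 and 4125 CPM in acute 72 h and 3826, 3003, 3172 and 2673 CPM in acute 7 d HSCs. In chronic injury it measured 2345, 1693, 3944 and 2598 CPM at 24 h and 1219, 947, 1108 and 1036 CPM at 14 d. Its healthy and acute 24 h libraries were widely spread, and acute 7 d was the group that lay wholly above healthy (1.40 ± 0.46, adjusted p = 0.031). Leaving out healthy replicate 1, 2 or 3 or acute 7 d replicate 1 or 3 ended this call, with adjusted p of up to 0.0977. At chronic 24 h the difference was 1.14 ± 0.46 (adjusted p = 0.0639), and without healthy replicate 4 it was 1.60 (adjusted p = 0.0145). Fkbp10, a prolyl isomerase of procollagen at chr11:100415697-100424824 on the plus strand (GRCm38), measured 137, 128, 144 and 88.3 CPM in healthy, 347, 315 and 299 CPM in acute 24 h, 323, 277, 334 and 383 CPM in acute 72 h and 321, 269, 296 and 175 CPM in acute 7 d HSCs. In chronic 24 h, 72 h and 14 d HSCs it spanned 333 to 453, 137 to 219 and 116 to 149 CPM. The first 4 injured groups did not overlap with healthy. Fkbp10 was called higher in acute 24 h (1.36 ± 0.20, adjusted p = 1.16e-05), acute 72 h (1.40 ± 0.19), acute 7 d (1.09 ± 0.18) and chronic 24 h HSCs (1.70 ± 0.19, adjusted p = 3.3e-07). It overlaps Nt5c3b, whose group means lay between 38.5 and 53.1 CPM.

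Fkbp11, a membrane-anchored relative known from secretory tissues, was nearly absent from healthy HSCs. Its values were 0.816, 0, 0.843 and 0 CPM in healthy, from 19 counts summed over the 4 libraries. It measured 4.90, 5.82 and 9.57 CPM in acute 24 h, 2.66, 7.97, 8.78 and 7.20 CPM in acute 72 h, 9.22, 6.48, 7.73 and 5.90 CPM in acute 7 d and 11.4, 19.9, 30.3 and 25.5 CPM in chronic 24 h HSCs. At chronic 72 h and 14 d it measured 3.07, 2.43, 5.60 and 9.17 and 1.49, 3.95, 2.53 and 0 CPM. All libraries of the first 5 of these groups were above all healthy libraries, and it was called higher in each (adjusted p = 1.54e-05 in chronic 24 h and 0.000655 in acute 24 h HSCs). At chronic 14 d it was not called with all libraries (adjusted p = 0.0924), and was called without chronic 14 d replicate 4 (adjusted p = 0.0229) and by DESeq2. The size of the fitted difference depends on the prior count at such low levels and is not given. By edgeR's test, Ppib and Crtap, which form a prolyl 3-hydroxylation complex with P3H1, were not called in any comparison (unadjusted p = 0.212 and 0.922 in chronic 24 h HSCs). Crtap kept to 157 to 199.6 CPM in healthy and 142 to 195 CPM in chronic 24 h HSCs (-0.02 ± 0.21, 95% interval -0.43 to 0.39). Ppib spanned 18.9 to 50.4 CPM in healthy and 39.3 to 197 CPM in acute 24 h HSCs, a difference called only without acute 24 h replicate 2 (1.76, adjusted p = 0.0436). It overlaps Snx22, whose group means were 147 to 290.0 CPM, against 33.2 to 94.7 CPM for Ppib.

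The secretory genes were set beside their cargo. The summed level of 8 collagen genes was 5262 to 6791 CPM in healthy and 3981 to 5639.6 CPM in acute 24 h HSCs, where 2 of the 8 were called higher (Col1a1, 1.29 ± 0.36, and Col5a2, 0.69 ± 0.24) and 3 lower, among them Col6a1 (-1.18 ± 0.17) and Col6a2 (-1.06 ± 0.19). In the same libraries Sec61a1, Kdelr3, Fkbp10 and Creb3l1 were called higher, as given above. All 8 were called higher in chronic 24 h HSCs. Collagens summed to 15616 to 34206 CPM in acute 72 h, 33252 to 56200 CPM in acute 7 d and 20504 to 28877 CPM in chronic 24 h HSCs. At chronic 72 h the sum was still 18923 to 30867 CPM, in libraries in which the export genes summed to 484 to 657 CPM, within or below the healthy range of 562 to 659 CPM. Translocation genes summed to 862 to 1293 CPM there, above all healthy values (535 to 791 CPM). Of these genes, Ssr3 lay wholly above healthy, at 352 to 611 CPM against 27.1 to 204 CPM. Sec61a1 (261 to 362 CPM), Ssr1 (186 to 257 CPM) and Sec61b (23.2 to 61.9 CPM) overlapped with healthy. Collagen folding factors summed to 1778 to 2902 CPM, overlapping with healthy (917 to 2479 CPM). Among single members, Pdia5, Ssr3, Kdelr3 and Fkbp11 were still called higher than healthy, and Dnajc3, Hyou1, Creb3l2, Sec31a and Mia3 lower. The difference in timing between the secretory genes and the collagens was not tested.

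From 24 h to 72 h, 21 members fell in the chronic course and 6 in the acute course. From chronic 24 h to 72 h, a comparison added after the data had been seen, 21 of 42 members were called lower and 0 higher, against 8.04% and 7.55% of all genes, with a median of -0.83 over the members and 0.00 over all genes. With only the libraries of higher depth 13 were called lower (759 of 18983 genes), and with only those of lower depth 7 (189 of 16341 genes). With all libraries, all 7 export genes, 4 of 6 sensors and factors and 3 of 5 isomerases were called lower. The falls of Calr, Eif2ak3, Sec23a, Mia3 and Fkbp11 were each lost without chronic 24 h replicate 3, and for all but Eif2ak3 also without other libraries (adjusted p up to 0.121, 0.0574, 0.164, 0.137 and 0.11). From acute 24 h to 72 h, 6 members were called lower (Dnajb9, Atf6, Ern1, Creb3l1, Syvn1 and Sec61a1) and 2 higher (Pdia4 and Pdia5), against 8.47% and 14.6% of all genes. Of the falls in the acute course, those of Dnajb9 and Sec61a1 were lost without acute 24 h replicate 3 (adjusted p = 0.0826 and 0.059) and that of Creb3l1 without acute 24 h replicate 1 (adjusted p = 0.102). That of Syvn1 was lost without any acute 24 h library or acute 72 h replicate 2, 3 or 4 (adjusted p up to 0.0912). Without acute 24 h replicate 3, 7 members were called higher from acute 24 h to 72 h, as were 2254 of 19338 genes.

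The difference between the 2 courses was tested directly as an interaction. In 13 members the change from 24 h to 72 h was lower in chronic than in acute injury, and in 0 it was higher, against 7.64% and 3.2% of all genes. The median over the members was -0.87 and over all genes -0.09. The 13 were 5 of 7 export genes, 3 of 5 isomerases, 2 chaperones, Creb3l1, Sec61a1 and Fkbp10. Kdelr3 had the lowest value of the 13 (-2.04 ± 0.38, adjusted p = 0.00104), and it changed by 0.41 ± 0.27 in the acute and -1.63 ± 0.26 in the chronic course. Sec24d changed by 0.04 ± 0.24 and -1.46 ± 0.23 (interaction adjusted p = 0.00502). In Pdia4 the 2 changes had opposite signs, 1.03 ± 0.21 and -0.81 ± 0.19 (interaction -1.84 ± 0.28, adjusted p = 0.000163). Creb3l1 fell in both, by 0.67 and 2.0, and the difference was -1.33 ± 0.28 (adjusted p = 0.00275). Of the 13, Hsp90b1 lost the call without any of 9 libraries (adjusted p up to 0.111) and Sec23a without acute 24 h replicate 2, acute 72 h replicate 3 or 4 or chronic 24 h replicate 4 (adjusted p up to 0.0674), and the other 11 kept it with every library left out in turn. The groups also differ in depth, since 2 chronic 24 h and 2 chronic 72 h libraries held fewer than 10 M counts, and the hepatocyte markers summed to 1066 to 4904 CPM in chronic 24 h and 4633 to 7205 CPM in chronic 72 h HSCs. With only the libraries of higher depth, 10 of the 13 kept the call, and Hsp90b1, Calr and Pdia6 lost it. In that fit 712 of 18983 genes had a lower change in chronic injury.

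**Figure D5:**
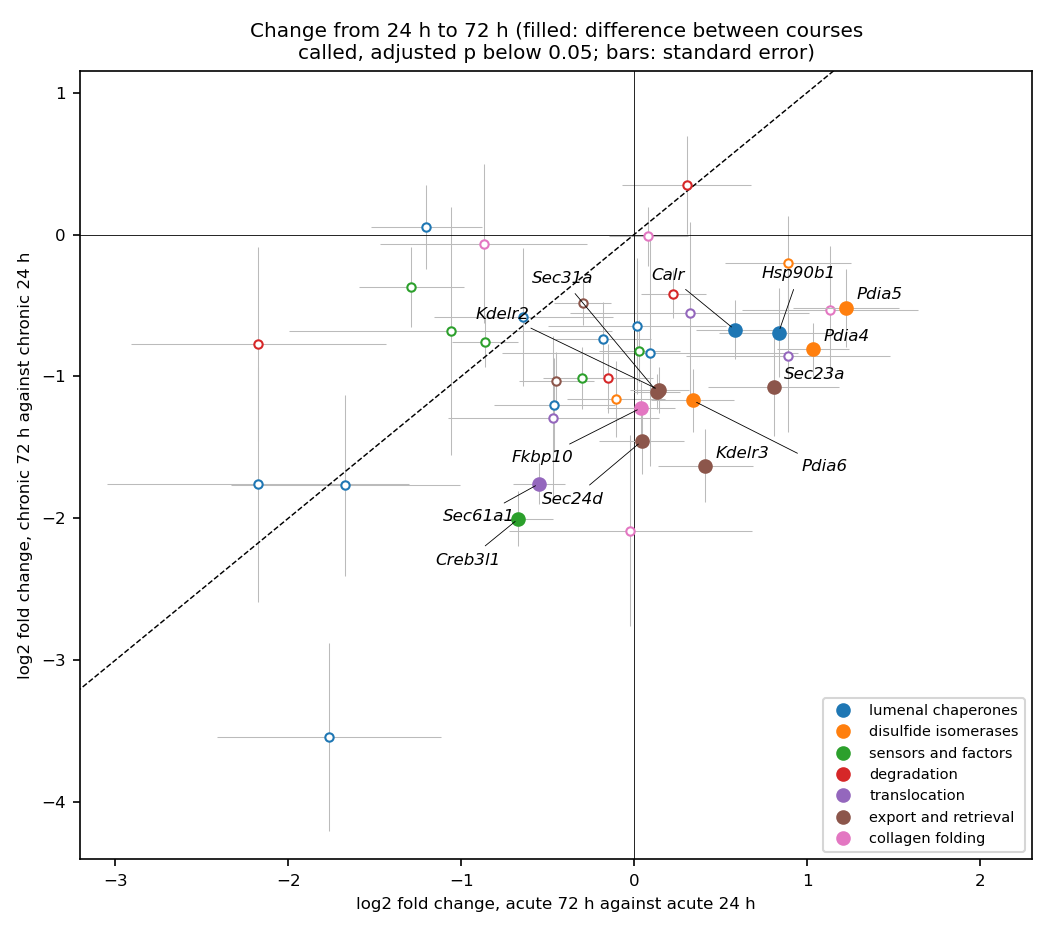
Log2 fold change from 24 h to 72 h after 1 injection (horizontal axis) and after the last of 8 injections (vertical axis) for the 42 genes, coloured by role (bars, standard error; dashed line, equal change; filled, difference called). All 13 filled points lie below the dashed line, and 11 of them lie to the right of 0.

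The chronic 14 d libraries were also compared with those of chronic 24 h. From chronic 24 h to 14 d, 20 members were called lower and 0 higher, against 12.9% and 10.1% of all genes (median -1.02 over the members and 0.01 over all genes). Against healthy, 1 member was called higher and 2 lower at this time, and all 3 calls (Ern1, Creb3l2 and Sec31a) were lost with at least 1 library left out. The lowest called values from 24 h to 14 d were those of Fkbp11, Hyou1 (-2.76 ± 0.64), Creb3l1 (-2.65 ± 0.20) and Kdelr3 (-2.45 ± 0.27, adjusted p = 8.26e-07). Because all chronic 14 d libraries held 6.31 to 7.44 M counts, this comparison was repeated with only the libraries of lower depth, which left chronic 24 h replicates 1 and 2. In that fit 11 members were called lower, as were 1111 of 16341 genes. Leaving out chronic 24 h replicate 3 ended the calls of Hsp90b1, Pdia5 and Serpinh1, and leaving out chronic 24 h replicate 4 those of Creb3l2, Edem1 and Serpinh1. Chronic 14 d replicates 1 and 2 each ended those of Hsp90b1, Creb3l2, Edem1 and Serpinh1 (adjusted p up to 0.147, in Serpinh1).

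Repeated injury was compared with a first injury at the same time after the last injection. In chronic 24 h against acute 24 h HSCs, 10 members were called higher and 0 lower, against 14% and 7.32% of all genes, and the median was 0.44 over the members and 0.01 over all genes. The 10 were Calr, Pdia4, Pdia5, Eif2ak3, Creb3l1, Sel1l, Sec23a, Sec24d, Sec31a and Kdelr3. Sec23a differed by 1.38 ± 0.39 (adjusted p = 0.0124), Sec31a by 0.71 ± 0.13 (adjusted p = 0.000463) and Sec24d by 0.87 ± 0.25 (adjusted p = 0.0147). Calr, Pdia4, Creb3l1, Sec31a and Kdelr3 kept the call with every library left out. Pdia5 lost it without acute 24 h replicate 1 or 3 or chronic 24 h replicate 3 or 4 (adjusted p up to 0.0775), Sec23a without acute 24 h replicate 2 (adjusted p = 0.0704) and Sec24d without acute 24 h replicate 1 or 2 (adjusted p up to 0.0845). Without acute 24 h replicate 2, 6 members were called higher, as were 1769 of 19342 genes. These groups also differ in age at collection, in depth and in hepatocyte markers (110 to 484 CPM in acute 24 h and 1066 to 4904 CPM in chronic 24 h HSCs), and these cannot be told apart from the number of injections.

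The other genes of the pathway, taken from lists by function, are counted here by the same test, in which 15.5% of all genes were called higher and 18.1% lower in acute 24 h and 17.1% and 14% in chronic 24 h HSCs. Of 22 other translocation and glycosylation genes tested, 12 were called higher and 0 lower in acute 24 h, and the same numbers in chronic 24 h HSCs, with medians of 0.65 and 0.77. They included Srprb, a subunit of the signal recognition particle receptor (2.08 ± 0.57 and 2.07 ± 0.54), and Ssr4 (1.60 ± 0.51 in acute 24 h HSCs). Of 29 other COPII and COPI transport genes, 12 were called higher and 0 lower in acute 24 h and 15 higher and 1 lower in chronic 24 h HSCs, with medians of 0.58 and 0.80. The cargo receptor Tmed9 rose by 2.04 ± 0.27 and 1.77 ± 0.26, and the coatomer gene Copb2 by 1.47 ± 0.26 in chronic 24 h HSCs. From chronic 24 h to 14 d, 13 of the 22 and 17 of the 29 were called lower and none higher in edgeR's test. Of 20 other ER folding genes, 4 were called higher and 1 lower in acute 24 h and 5 higher and 0 lower in chronic 24 h HSCs, with Mogs, the first glucosidase of glycan trimming, at 1.04 ± 0.18 and 1.25 ± 0.17.

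Genes of the stress response were counted in the same way, beside the same shares of all genes (15.5% higher and 18.1% lower in acute 24 h, 17.1% and 14% in chronic 24 h HSCs). Of 19 other unfolded protein response and degradation genes, 2 were called higher and 4 lower in acute 24 h and 3 higher and 1 lower in chronic 24 h HSCs, with medians of 0.31 and 0.24. Vcp, the segregase that pulls proteins from the ER, was higher in both (0.53 ± 0.13 and 0.64 ± 0.12), and Mbtps1, the protease that cuts ATF6, was lower in acute 24 h HSCs (-0.86 ± 0.22). Of 9 genes of the PERK and ATF4 arm, 3 were called higher and 0 lower in each 24 h group, with medians of 0.72 and 0.31. Their summed level was 1422 to 2734 CPM in healthy, 1496 to 2397 CPM in acute 24 h and 938 to 2030 CPM in chronic 24 h HSCs. Atf4 rose by 1.50 ± 0.22 in acute 24 h (adjusted p = 1.29e-05) and by 0.68 ± 0.20 in chronic 24 h HSCs (adjusted p = 0.0135). Its target Asns, asparagine synthetase, had a mean of 0.0632 CPM in healthy, 6.45 CPM in acute 24 h and 1.87 CPM in chronic 24 h HSCs. Of 15 collagen modification genes, 3 were called higher and 4 lower in acute 24 h and 8 higher and 2 lower in chronic 24 h HSCs, with medians of 0.44 and 0.51. Plod2, the lysyl hydroxylase of collagen telopeptides, rose in both (0.97 ± 0.26 and 1.77 ± 0.25), Fkbp9 fell in both (-1.12 ± 0.13 and -0.87 ± 0.12), and P4ha3 was at 0 in all healthy libraries and at 1.20 to 4.38 CPM in chronic 24 h HSCs. The 15 collagen modification genes summed to 2081 to 2374 CPM in healthy and 1690 to 2590 CPM in chronic 24 h HSCs. Their acute 24 h sum, 1587 to 1695 CPM, was below all healthy values. Of 11 cytosolic and mitochondrial heat shock genes, 1 (Hspa9) was called higher in each 24 h group, and the medians were -0.04 and 0.87.

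Levels also differed between the genes themselves. Per kilobase of exon, the highest healthy means were those of Serpinh1 (491 CPM per kb), Hspa5 (360.2 CPM per kb), P4hb (279 CPM per kb) and Calr (244 CPM per kb), and the lowest those of Eif2ak3 (6.37 CPM per kb), Pdia5 (2.70 CPM per kb), Ern1 (1.44 CPM per kb) and Fkbp11 (0.153 CPM per kb). The order of the 4 highest is not firm, since Serpinh1 spanned 529 to 2185 CPM and Hspa5 1038 to 2274 CPM between the healthy libraries. Several members were low in single libraries of a group and high in the others. Among 39 members with a mean of at least 20 CPM, 11 had a ratio above 5 between the highest and lowest library of some group, or 28.2%, against 12.9% of 7485 genes at this level (limits chosen after the data were seen). The highest ratios were those of Sec61b in acute 7 d (82.9), Canx in chronic 14 d (33.9, at 18.0, 335, 450.4 and 609 CPM), Ssr3 in chronic 14 d (18.3) and Xbp1 in acute 7 d (15.2, at 434, 48.4, 433 and 734 CPM). The cause of these differences between libraries was not tested.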

How the data were processed

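RNA-seq gene counts of 27 libraries were used. The deposited counts were made by the authors with STAR and StringTie on GRCm38, as the submitters' processing notes name them, and whether counting used strand is not given in the sources used here. Genes were named and placed with GENCODE M21. Low counts were filtered by group with filterByExpr (18758 genes kept), and TMM scaling and edgeR 4.0.16's quasi-likelihood test (robust; R 4.3.3, limma 3.58.1) were applied in 1 model of all 7 groups, with Benjamini-Hochberg adjustment over all genes tested. A gene was called at an adjusted p below 0.05. CPM used TMM-scaled library sizes, and intervals are 95% normal intervals. Code was tested on simulated data. The 42 genes and all lists were chosen by function with earlier results of these data known. Values by library, in some or all of the groups, were given for 14 listed genes and for members called with a change above 2-fold in a comparison with healthy. Others were added after values were seen. From pathway lists, the 2 highest and 2 lowest called in each 24 h group could be named. Chronic 72 h against chronic 24 h, and the omission of the 2 hepatocyte-rich libraries, were added after seeing the data. The alternatives were other scaling, filters, depth handling, a replicate block, a 2-fold rule, DESeq2 1.42.0, the compared groups alone and each library left out. Each repeat was a separate experiment according to the study's methods, and p-values measure the spread between these libraries. Figures were drawn with matplotlib 3.10.9.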

Additional observations from a re-analysis of the deposited data

Results flagged for a closer look

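Among 252 sets of values (42 genes in the 6 groups of 4 libraries), 18 had 1 library far from the other 3 by Dixon's test, which chance does in about 5% of sets. Acute 7 d replicate 4 was the high library for Hsp90b1 (887 CPM), Dnajb11 (77.3 CPM), Sdf2l1 (116 CPM) and Hyou1 (87.8 CPM), and healthy replicate 4 for Calr (1014 CPM) and Ssr1 (289 CPM). Also high were Manf in chronic 72 h replicate 4 (65.1 CPM), Ssr3 in chronic 24 h replicate 3 (967 CPM) and Ppib in chronic 72 h replicate 2 (118 CPM). Acute 72 h replicate 1 was low for Hspa5 (670.2 CPM) and Dnajb9 (51.6 CPM), and acute 72 h replicate 2 for Canx (69.6 CPM) and Sec31a (171 CPM). Sec61b was low in acute 7 d replicate 3 (0.724 CPM) and chronic 14 d replicate 3 (25.3 CPM), Ssr3 in chronic 14 d replicate 2 (26.6 CPM), Ern1 in acute 7 d replicate 1 (8.09 CPM) and Pdia6 in chronic 24 h replicate 1 (424 CPM).

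The change from 24 h to 72 h differed between chronic and acute injury, by the interaction test in edgeR, in 13 genes. The log2 differences (chronic minus acute) were -1.53 for Hsp90b1, -1.25 for Calr, -1.84 for Pdia4, -1.74 for Pdia5, -1.51 for Pdia6, -1.33 for Creb3l1 and -1.21 for Sec61a1. They were -1.88 for Sec23a, -1.50 for Sec24d, -1.24 for Sec31a, -1.24 for Kdelr2, -2.04 for Kdelr3 and -1.26 for Fkbp10.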

How the results depend on the processing

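No member with a call reversed its direction under any alternative run. Requiring a change above 2-fold as well left 9 members higher and 1 lower in acute 24 h, 5 and 0 in acute 72 h, 0 lower in acute 7 d, 11 higher in chronic 24 h, 2 lower in chronic 72 h and 0 either way in chronic 14 d HSCs. It left 3 lower from acute 24 h to 72 h and 4 higher in chronic against acute 24 h. The 1 member lower in acute 72 h became 2 with DESeq2 size factors, with depth class as a term, with only libraries of higher depth, with only the groups compared and with DESeq2, and 0 with library size alone, with no filter and without the hepatocyte-rich libraries. Of all genes, 1213 to 2185 were lower in the former settings and 1194 to 1787 in the latter. The 1 lower in acute 7 d became 2 with a mean of at least 1 CPM, depth class as a term, only libraries of higher depth, DESeq2 and without the hepatocyte-rich libraries. Of all genes, 1680 to 2341 were lower there in these settings. The 5 lower in chronic 72 h became 2 with library size alone, 3 with no filter and without the hepatocyte-rich libraries, and 1 with depth class as a term and with only libraries of higher depth. In the same order, 1163, 1142, 2012, 1600 and 979 of all genes were lower. The 1 higher in chronic 14 d became 0 with no filter, depth class as a term and only the groups compared, 3 with DESeq2 and 2 without the hepatocyte-rich libraries. In the same order, 736, 458, 544, 1415 and 933 of all genes were higher. The 2 lower became 1 with DESeq2 size factors and 0 with library size alone, no filter, depth class as a term, only the groups compared and without the hepatocyte-rich libraries. In the same order, 486, 287, 349, 400, 241 and 741 of all genes were lower. With library size alone, 5 members were higher from acute 24 h to 72 h, and so were 3252 of 18758 genes. With only libraries of lower depth, 11 fell from chronic 24 h to 14 d (1111 of 16341 genes). From chronic 24 h to 72 h, 13 fell with only libraries of higher depth (759 of 18983 genes) and 7 with only those of lower depth (189 of 16341 genes). The causes were not tested, beyond the fewer libraries in these last fits.

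With each library left out in turn, 2 to 5 members were lower in acute 24 h (5 without acute 24 h replicate 3), 0 to 1 in acute 72 h, 0 to 3 in acute 7 d, 2 to 6 in chronic 72 h and 0 to 2 in chronic 14 d HSCs, where 0 to 2 were higher. Of all genes, 2548 to 3289, 1214 to 1804, 1430 to 2355, 1187 to 2016 and 262 to 1118 were lower in the same groups. In chronic 14 d HSCs 672 to 1415 were higher. From acute 24 h to 72 h, 2 to 7 members rose (7 without acute 24 h replicate 3, with 2254 of 19338 genes) and 3 to 7 fell, against 2084 to 2813 and 1125 to 1622 of all genes. In chronic against acute 24 h HSCs, 6 to 12 members were higher (6 without acute 24 h replicate 2), against 1769 to 2530 of all genes. Correlations of deviations ran from -0.17 to 0.19 between libraries with the same replicate number, with 15 of 78 pairs above 0.1, against 16 of 234 pairs with different numbers. Pairs with the same number were more often above 0.1, while the medians were 0.014 and -0.003. These correlations do not decide whether the numbers pair the samples, and the main model does not use the numbers. With the replicate number as a block, 2 members were lower in acute 72 h, 2 in acute 7 d and 1 in chronic against acute 24 h HSCs, and in 1 member (Dnajb9) the change from 24 h to 72 h was higher in chronic than in acute injury. In the same order, the block called 1755, 2039, 1391 and 626 of 18758 genes. In chronic 24 h against healthy HSCs, the block kept all 17 calls and added Hspa5, Calr, Hyou1 and Atf6, so that 21 members were higher, as were 3202 of 18758 genes. Depth limits any fold for Fkbp11, with 19 counts over the 4 healthy libraries.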
